A study of Mus musculus with 12 samples.

Results

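The Hox genes encode homeodomain transcription factors that lie in 4 clusters, A to D, and give cells their position along the body axis. Their expression was measured in inducible and parental NIH 3T3 mouse fibroblasts. Probe sets were taken as Hox genes where the gene symbol was Hox, a cluster letter and a number, and 33 of the 16475 probe sets tested fulfilled this rule, with 9 in cluster A, 9 in B, 6 in C and 9 in D. The inducible cells, labelled NIH 3T3-RheoSwitch-Ier2 and Klon11 (3T3-ind-IER2 #11), are 1 clone that carries the receptor plasmid pNEBR-R1 and mouse IER2 on pNEBR-Ier2-hygro. The parental cells are labelled NIH 3T3, with no plasmid named. Each line was given DMSO or 200 nM RheoSwitch ligand (RSL) and harvested after 24 h, with 3 Affymetrix Mm430_2.0 arrays per group and 12 in all. The labels give 1 growth medium, with both selection drugs, for all samples. Because the inducible line is a single clone, what IER2 and the plasmids do, the drift of a clone and the choice of that clone cannot be told apart in a comparison with the parental line. Each array reads RNA of a whole culture, so fewer cells that express a gene and less RNA per cell cannot be told apart either.

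Along each cluster, genes with low numbers are used near the head of the embryo and genes with high numbers toward the tail and the ends of the limbs. Genes that share a number in different clusters are paralogs, descended from 1 ancestral gene. Fibroblasts keep part of the Hox pattern of the site they came from in culture, so the Hox genes that a fibroblast line expresses serve as a record of its positional identity. Hox proteins bind DNA together with TALE homeodomain proteins of the Pbx, Meis and Pknox families. Polycomb proteins hold Hox genes silent and trithorax proteins of the MLL complexes hold them active, while retinoic acid induces Hox genes in the embryo.

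The deposited values are normalized log2 intensities, so a difference of 1 is a doubling. A gene was called where its adjusted p in limma was under 0.05. The low range of an array was taken from 122 probe sets of olfactory, vomeronasal and taste receptors, beta defensins and keratin-associated proteins, which fibroblasts are not known to express. The 95th percentile of their group means lay between 6.49 and 6.55, and their median between 5.96 and 5.99. Levels of single probe sets were set against this range and the median of the arrays, not against each other. The cells read as fibroblasts, since 15 of 18 fibroblast markers lay above the low range in every group, Col1a1, Thy1 and Pdgfra among them. The mean of the 18 markers was 9.79 to 9.86 on inducible arrays and 9.65 to 9.75 on parental arrays. Of the 18, 8 were higher and 4 lower in inducible cells under DMSO, against 15.2% and 14.5% of all probe sets. The other 3 markers, not above the low range in any group, included Postn. Of 8 endothelial markers, none in parental cells and Tie1 alone in inducible cells lay above it, and so did 1 to 3 of 8 epithelial and 3 or 4 of 8 macrophage markers. Ptprc, Adgre1, Epcam, Cdh1, Pecam1 and Cdh5 were within the low range in every group. By contrast, Csf1r and Fcer1g of the macrophage list and Krt5 of the epithelial list lay above it in every group. Csf1r had group means of 7.29 to 7.53. The mean of the macrophage list lay between 6.37 and 6.49 on every array, that of the epithelial list between 6.19 and 6.30 and that of the endothelial list between 6.06 and 6.17. The part of these markers' shifts in the Hox results was not tested. Ier2 read 9.02 ± 0.06 (SD, n = 3) in inducible cells under DMSO and 8.55 ± 0.10 (SD, n = 3) in those labelled RSL, lower where the labels imply induction. Whether its probes read the construct is not known, so Ier2 does not check the labels, and RSL below means the arrays so labelled.

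Hoxa5 and Hoxa7 stand next to each other among the members of cluster A, and Hoxd8 had a level far above the low range. Their upstream sequences are shown because Hoxa7 and Hoxd8 differed between the cell lines under both treatments and Hoxa5 under DMSO. They are 250 bases before the RefSeq start of each gene in GRCm38.p6, on the strand of the gene, from chr6:52204588-52204837 (minus strand), chr6:52218574-52218823 (minus strand) and chr2:74704365-74704614 (plus strand). Capitals mark the dinucleotide CG.
Hoxa5: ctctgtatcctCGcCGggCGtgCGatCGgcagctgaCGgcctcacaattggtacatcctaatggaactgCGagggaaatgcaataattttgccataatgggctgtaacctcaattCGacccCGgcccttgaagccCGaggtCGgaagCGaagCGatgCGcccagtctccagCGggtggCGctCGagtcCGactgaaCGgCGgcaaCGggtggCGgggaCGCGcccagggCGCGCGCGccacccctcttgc
Hoxa7: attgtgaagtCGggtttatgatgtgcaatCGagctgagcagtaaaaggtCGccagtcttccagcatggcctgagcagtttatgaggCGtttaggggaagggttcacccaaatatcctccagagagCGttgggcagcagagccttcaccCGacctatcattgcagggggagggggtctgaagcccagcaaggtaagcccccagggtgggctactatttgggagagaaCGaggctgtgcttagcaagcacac
Hoxd8: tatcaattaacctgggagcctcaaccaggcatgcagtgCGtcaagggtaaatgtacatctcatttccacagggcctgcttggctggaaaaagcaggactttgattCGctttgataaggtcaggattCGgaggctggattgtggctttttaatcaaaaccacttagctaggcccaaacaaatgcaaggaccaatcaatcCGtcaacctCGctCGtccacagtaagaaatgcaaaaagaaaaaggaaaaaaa
The table of RefSeq starts held 23 promoters of 21 of the 33 members. Hoxb3, Hoxb6 and Hoxb13, which also differed between the cell lines under both treatments, had none there and are not shown. Hoxa5 had 28 CG in this window, Hoxa7 had 7 and Hoxd8 had 6, against a median of 12 over the Hox promoters and of 6 over all 32851 promoters of the same length. The letters TAAT, the core read by many homeodomains, were searched on both strands and were found 3 times upstream of Hoxa5, 2 times upstream of Hoxd8 and not upstream of Hoxa7. They were in 17 of 23 Hox promoters and in 54.9% of all promoters. The letters AGGTCA, read by retinoid receptors, stood once upstream of Hoxd8, in 6 of 23 Hox promoters and in 14.0% of all promoters. TGATNNAT, a joint site of Hox and Pbx proteins, and TGACAG, a Meis site, were in none of these 3 windows, and in 7.68% and 15.9% of all promoters. These matches describe the letters only.

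Clusters A, C and D held members with levels above the array median in both cell lines. Hoxd8, Hoxa5, Hoxa7, Hoxd9 and Hoxc6 lay above the median of the arrays in all 4 groups. Hoxd8, which acts in the trunk, had group means of 9.40 to 9.71, Hoxa5, a gene of the neck, chest and lung, of 8.67 to 8.81, and Hoxa7 of 7.87 to 8.23. Hoxd9, a gene of the limb and lower spine, lay between 8.09 and 8.27, and Hoxc6, a gene of the chest, between 7.46 and 7.58. In total, 17 of the 33 members were above the low range in all 4 groups. Of these, 6 were in cluster A, 5 in B, 3 in C and 3 in D. A further 15 were within it in all groups, and Hoxa2 crossed it, with group means of 6.51 to 6.62. The genes within the low range included the digit and tail genes Hoxa13, Hoxc13 and Hoxd13, and also Hoxd10, Hoxd11, Hoxd12, Hoxb1 and Hoxd1, with group means between 5.58 and 6.20. For these genes a difference of log2 values says little about expression. The largest SD within a group was 0.21, for Hoxa10 in parental cells under DMSO.

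**Figure D1:**
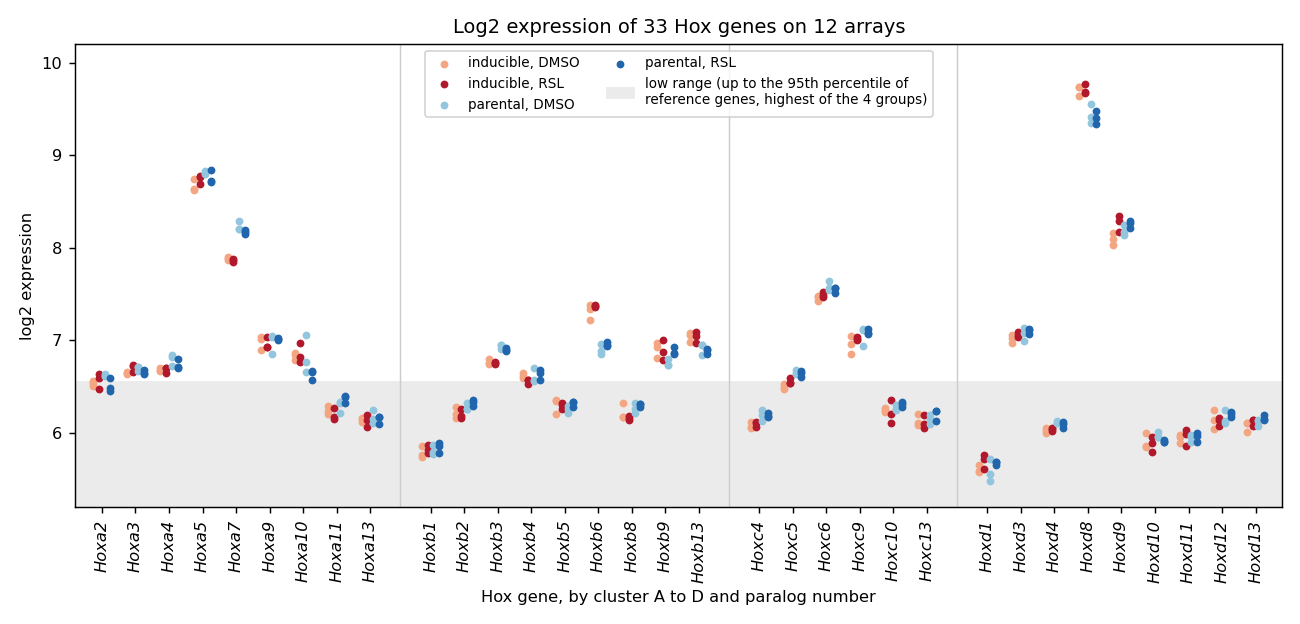
Log2 expression (y axis) of the 33 Hox genes (x axis, clusters A to D by number) on each of the 12 arrays, with points colored by group and the low range of reference genes shaded. Hoxa5, Hoxa7, Hoxd8 and Hoxd9 stand well above the shaded range in all groups, while 15 genes lie within it in all groups.

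To learn whether the clone kept the Hox pattern of its parent, inducible and parental cells were compared under DMSO. Hoxb6 and Hoxd8 were higher and Hoxa7 was lower in the inducible cells by more than 0.25 on the log2 scale, and 8 other members differed by less. Of the 33 members, 4 were higher, Hoxb6, Hoxd8, Hoxb9 and Hoxb13, and 7 were lower, Hoxa5, Hoxa7, Hoxb3, Hoxc4, Hoxc5, Hoxc6 and Hoxd4. The other 22 were not called. Among all 16475 probe sets 29.7% were called, 15.2% higher and 14.5% lower, so that the 11 Hox genes are close to what the whole table shows. Likewise, 3 of 33 members and 8.74% of all probe sets were called with a log2 difference over 0.25. The median absolute difference was 0.07 over the members and 0.06 over all probe sets. The median of the signed differences was -0.04 for the members, with 24 of 33 below 0, and -0.01 for all. The inducible and parental arrays did not overlap for 14 members and for 40.2% of all probe sets.

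The same comparison in the arrays labelled RSL takes its means from other arrays, of the same clone and the same parental line. Its variance was estimated from all arrays together, so it is a second reading of the cell lines but not an independent replication. There 9 members were called, and 34.2% of all probe sets, 17.5% higher and 16.8% lower. The arrays did not overlap for 13 members, against 44.5% of all. Hoxb6, Hoxd8, Hoxb13 and Hoxa10 were higher and Hoxa7, Hoxb3, Hoxa11, Hoxb2 and Hoxb8 were lower. Called in the same direction under DMSO and under RSL were 5 members, Hoxb6, Hoxd8 and Hoxb13 higher and Hoxa7 and Hoxb3 lower, against 23.4% of all probe sets. The 3 with differences over 0.25 were again Hoxb6, Hoxd8 and Hoxa7, against 9.6% of all probe sets. For none of the 33 members did the difference between the cell lines change with RSL (0 called in limma, against 0.662% of all probe sets). An unadjusted p under 0.05 was reached by 3 members and by 9.07% of all probe sets.

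**Figure D2:**
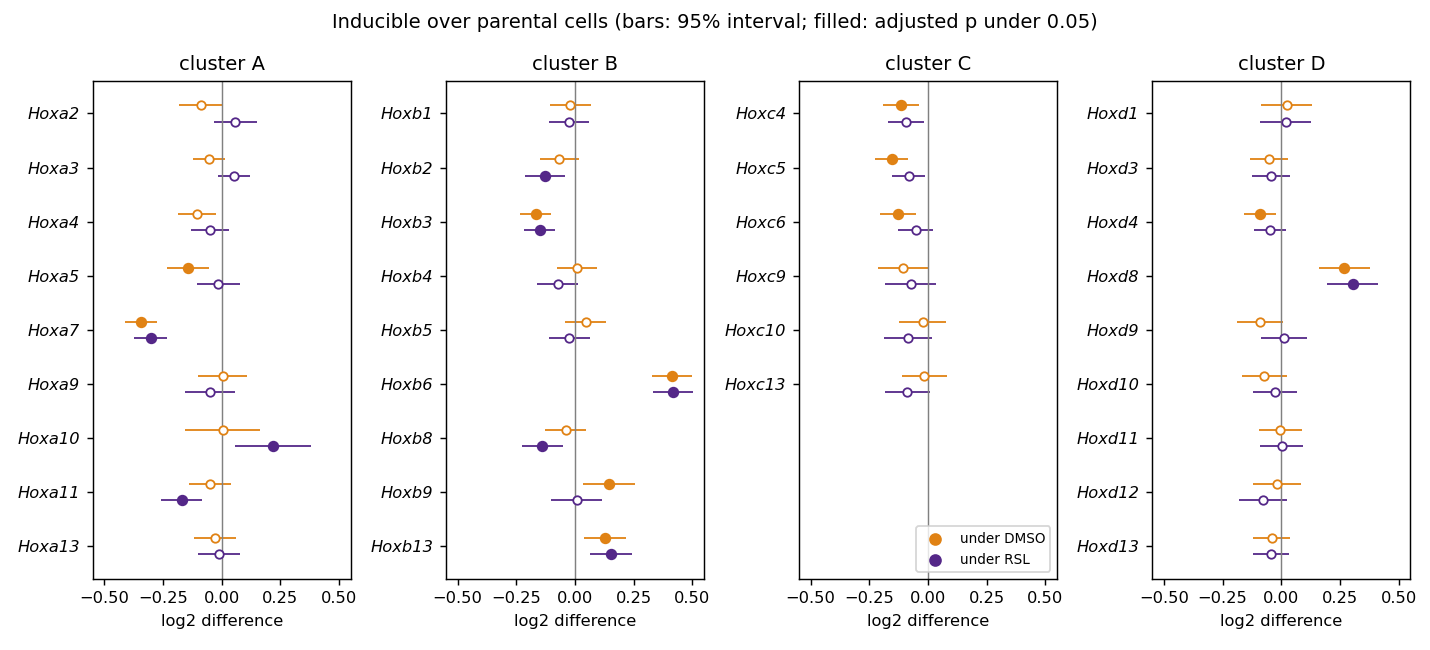
Log2 difference of inducible over parental cells (x axis) for each Hox gene, with its 95% interval, under DMSO (orange) and under RSL (purple). Filled points have an adjusted p under 0.05 in limma. Hoxa7 lies near -0.3 and Hoxb6 near 0.4 under both treatments, and most other genes lie within 0.2 of 0.

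Hoxb6, a gene of the trunk and forelimb region, had the largest difference of the 33 members. Under DMSO its log2 levels were 7.33, 7.22 and 7.39 in the inducible arrays and 6.86, 6.89 and 6.96 in the parental ones. In the arrays labelled RSL they were 7.36, 7.38 and 7.37 against 6.95, 6.99 and 6.94. Every inducible array lay above every parental array. The log2 difference was 0.41 under DMSO (standard error 0.04, adjusted p = 7.26e-07 in limma) and 0.42 under RSL (standard error 0.04, adjusted p = 5.70e-07), a fold of 1.33 in each. Leaving out any 1 array kept the difference between 0.38 and 0.46 under DMSO.

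Hoxd8 was the second member that was higher in the clone. It read 9.73, 9.74 and 9.64 in inducible and 9.34, 9.55 and 9.41 in parental cells under DMSO. Under RSL it read 9.76, 9.68 and 9.68 against 9.40, 9.33 and 9.48. The groups did not overlap in either comparison, although parental replicate 2 came within 0.1 of the lowest inducible array under DMSO. The log2 difference was 0.27 (standard error 0.05, adjusted p = 0.000608 in limma) under DMSO and 0.30 (standard error 0.05, adjusted p = 0.000183) under RSL. Its neighbor Hoxd9 did not differ beyond the spread, at -0.09 and 0.01, with 95% intervals of -0.19 to 0.01 and -0.09 to 0.11. Hoxd3, the next member on the other side by gene start, was at -0.05 and -0.04 and not called.

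Hoxa7 moved the other way. It read 7.90, 7.87 and 7.89 in inducible and 8.29, 8.20 and 8.21 in parental cells under DMSO, and 7.87, 7.88 and 7.85 against 8.17, 8.19 and 8.15 under RSL. All 6 inducible arrays lay below all 6 parental arrays. The log2 difference was -0.34 (standard error 0.03, adjusted p = 5.10e-07 in limma) under DMSO and -0.30 (standard error 0.03, adjusted p = 1.84e-06) under RSL. For each of these genes a two-sided exact permutation test of 3 against 3 arrays gave p = 0.1, the smallest it allows. Hoxa7 is the sole gene of paralog group 7 among the 33 members.

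**Figure D3:**
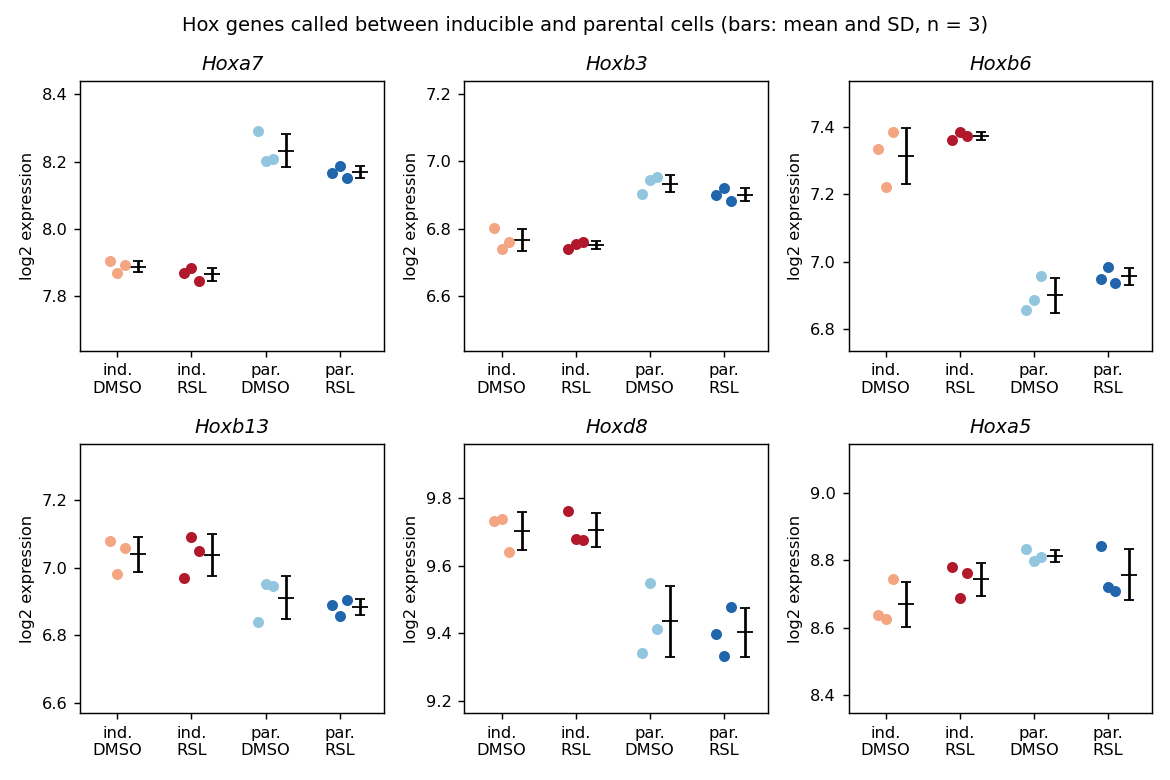
Log2 expression (y axes, each 0.8 wide) of 6 Hox genes on the 12 arrays (points) by group, where black bars give each group's mean ± SD (n = 3). Inducible arrays lie above parental ones for Hoxb6, Hoxb13 and Hoxd8 and below them for Hoxa7 and Hoxb3, while Hoxa5 is separated under DMSO only.

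Smaller differences were found in cluster B. Hoxb3, a gene of the hindbrain and neck, read 6.74 to 6.80 in inducible and 6.90 to 6.95 in parental cells under DMSO, with a log2 difference of -0.17 (standard error 0.03, adjusted p = 0.000470 in limma). Under RSL the difference was -0.15 (adjusted p = 0.00120), and both calls stayed in every alternative. Hoxb13, the most posterior gene of the cluster and known from the tail and prostate, was higher by 0.13 (standard error 0.04, adjusted p = 0.0262 in limma) and 0.15 (standard error 0.04, adjusted p = 0.00789). The DMSO call of Hoxb13 ended without inducible DMSO replicate 1 or 3 or parental DMSO replicate 1, with array weights (log2 difference 0.08) and in the one-way analysis of the methods. Hoxb9, a gene of the chest, was higher by 0.15 under DMSO (adjusted p = 0.0427 in limma) and at 0.01 under RSL. Its call ended without any of 7 of the 12 arrays, with adjusted p up to 0.181, and in the one-way analysis of the methods. Hoxb2 and Hoxb8, at -0.13 and -0.14 under RSL, were within the low range in all groups. Hoxb2 was not called without inducible RSL replicate 1 or 2 or parental RSL replicate 1 or 2. The cluster thus held members higher and lower in the clone, with Hoxb6 higher and Hoxb3 lower in both comparisons and Hoxb4 and Hoxb5 called in neither.

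In cluster C, the neighboring genes Hoxc4, Hoxc5 and Hoxc6, which act at the neck and chest, were lower together under DMSO. Hoxc5 read 6.53, 6.50 and 6.47 in inducible and 6.68, 6.63 and 6.65 in parental cells. The log2 difference of Hoxc5 was -0.15 (standard error 0.03, adjusted p = 0.00171 in limma) and remained a call in every alternative that tested this gene. Its inducible mean of 6.50 was just above the low range. Hoxc6 read 7.42, 7.46 and 7.48 against 7.65, 7.54 and 7.57, a difference of -0.13 (standard error 0.04, adjusted p = 0.0110). Hoxc4 was at -0.11 (adjusted p = 0.0238 in limma), a value from within the low range. In the arrays labelled RSL the 3 genes were at -0.09, -0.08 and -0.05 and none was called (adjusted p = 0.0526, 0.0662 and 0.278 in limma), and the change of the difference did not pass for any of them either. The calls under DMSO ended for Hoxc6 without inducible replicate 1 or parental replicate 1, and for Hoxc4 without inducible replicate 1 or 2 or parental replicate 1 or 2, with only the 6 arrays compared and in the one-way analysis of the methods. All 6 members of the cluster had negative values in both comparisons, from -0.15 to -0.02 and from -0.09 to -0.05. Of all 33 Hox members, 24 and 23 were below 0 in these comparisons. In all groups, 3 of the 6, Hoxc4, Hoxc10 and Hoxc13, lay within the low range.

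In cluster A, Hoxa5 was lower under DMSO, at 8.64, 8.62 and 8.75 in inducible and 8.83, 8.80 and 8.81 in parental cells. The log2 difference was -0.14 (standard error 0.04, adjusted p = 0.0167 in limma). Without inducible DMSO replicate 1 or 2 it was -0.13 or -0.12 and no longer called. The call also ended in the one-way analysis of the methods with Benjamini-Hochberg adjustment (adjusted p = 0.0856). Under RSL the groups overlapped, and the difference was -0.01 (95% interval -0.11 to 0.08). Hoxa4 just missed the threshold under DMSO, at -0.11 with adjusted p = 0.0504. Hoxa10, a gene of the lower trunk and the uterus, was higher by 0.22 under RSL (standard error 0.08, adjusted p = 0.0337 in limma) and at 0.00 under DMSO. Its parental arrays under DMSO were spread from 6.65 to 7.06, and the call under RSL ended without inducible RSL replicate 1 or 2 or any of the 3 parental RSL arrays. Hoxa11, a gene of the forearm and lower leg, was lower by 0.17 under RSL from levels within the low range, where inducible arrays read 6.15, 6.18 and 6.27 and parental arrays 6.32, 6.39 and 6.40 (adjusted p = 0.00403 in limma). In cluster D, Hoxd4 was lower under DMSO by 0.09, again within the low range (adjusted p = 0.0375 in limma). Its call ended with the replicate number as a block (adjusted p = 0.0533, between 0.00516 and 0.147 over all alternatives) and without inducible DMSO replicate 1 or 2 or any parental DMSO array. It also ended with repeated quantile normalization and with only the 6 arrays compared.

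Called paralogs went the same way in some groups and different ways in others, which was not tested against all probe sets. Under DMSO, Hoxa5 and Hoxc5 of group 5 were both lower, and so were Hoxc4 and Hoxd4 of group 4, which lie within the low range. Hoxb5 of group 5 and Hoxa4 and Hoxb4 of group 4 were not called, at 0.05, -0.11 and 0.01. In group 6, Hoxb6 was higher and Hoxc6 lower under DMSO. In group 8, Hoxd8 was higher in both comparisons, while Hoxb8, within the low range, was lower under RSL. In group 3, Hoxb3 was lower, and Hoxa3 and Hoxd3 were not called, at -0.05 each under DMSO. In group 13, Hoxb13 was higher, and Hoxa13, Hoxc13 and Hoxd13 were within the low range. By position, 1 of 7 members of groups 1 to 3 was called under DMSO, 8 of 12 of groups 4 to 8 and 2 of 14 of groups 9 to 13, where 29.7% of all probe sets were called. These bands hold few genes, and the difference between them was not tested. The central members, which hold 8 of the 17 genes above the low range, were 2 higher and 6 lower. Under RSL the counts were 2 of 7, 4 of 12 and 3 of 14, against 34.2% of all probe sets.

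Whether RSL changed Hox expression was asked in each cell line. In inducible cells 0 of 33 members were called in limma, against 2.54% of all probe sets, and 1 had an unadjusted p under 0.05, against 12.3% of all. That gene was Hoxd9, which read 8.34, 8.17 and 8.29 in the arrays labelled RSL and 8.09, 8.16 and 8.03 under DMSO. Each RSL array lay above each DMSO array, but the highest DMSO array and the lowest RSL array were close, and the log2 difference of 0.17 (standard error 0.05, adjusted p = 0.0596 in limma) did not pass. It passed with a filter on low values (adjusted p = 0.0399), an intensity trend in the variances (adjusted p = 0.0495), repeated quantile normalization (adjusted p = 0.0388) and without inducible RSL replicate 2 (adjusted p = 0.0194), and over all alternatives its adjusted p reached 0.432. In parental cells Hoxd9 was at 0.07, and the difference between the effects in the lines was not called (adjusted p = 0.706 in limma). Hoxa3, Hoxa5, Hoxc5 and Hoxd1, next by p in the inducible cells, were at 0.06, 0.07, 0.06 and 0.09 (adjusted p = 0.489 to 0.591 in limma). The 95% intervals of all 33 members lay between -0.15 and 0.27, so that an RSL effect beyond these bounds is outside the interval for every member in these cells.

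In parental cells, for which the labels name no plasmid, 0 of 33 members were called in limma, against 0.0303% of all probe sets. An unadjusted p under 0.05 was found for 3 members, against 9.71% of all probe sets. Hoxa2 read 6.49, 6.45 and 6.59 with RSL and 6.62, 6.61 and 6.64 with DMSO, a log2 difference of -0.11 (adjusted p = 0.438 in limma) close to the low range. Hoxb9 was at 0.13, with 6.87, 6.93 and 6.85 against 6.80, 6.73 and 6.74 (adjusted p = 0.458). Hoxa10 was at -0.19 (adjusted p = 0.449), with overlapping arrays, and at -0.08 without parental DMSO replicate 2. Hoxa7 and Hoxa11 followed by p, at -0.06 and 0.08. The arrays did not overlap for 3 members in inducible and 4 in parental cells, against 18.1% and 13.3% of all probe sets. The difference between the effects of RSL in the 2 lines had an adjusted p of 0.448 or more in limma for all 33 members. It had an unadjusted p under 0.05 for Hoxa2, Hoxa3 and Hoxa5, at 0.15, 0.10 and 0.13, against 9.07% of all probe sets. For Hoxa11 and Hoxa10, next by p, it was -0.12 and 0.21, and for Hoxa10 it was 0.10 without parental DMSO replicate 2.

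**Figure D4:**
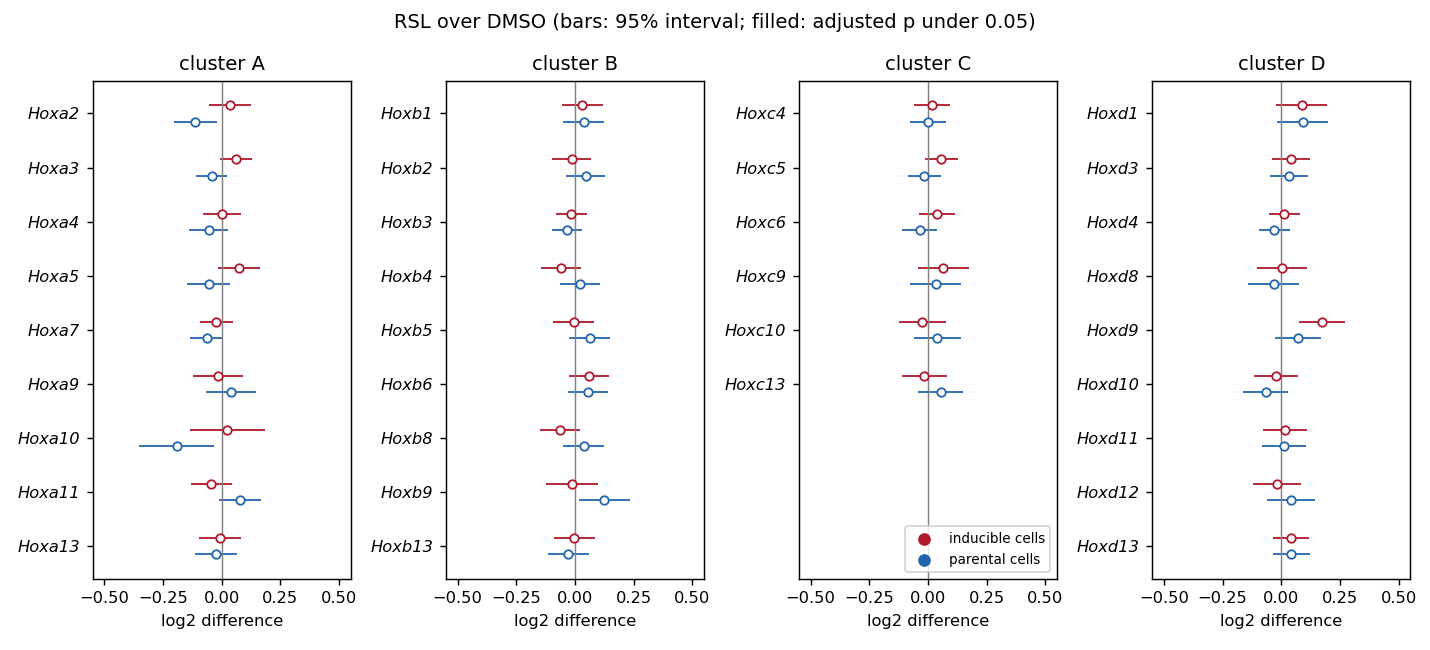
Log2 difference of RSL over DMSO (x axis) for each Hox gene, with its 95% interval, in inducible (red) and parental (blue) cells. Open points did not pass an adjusted p under 0.05 in limma, and all points are open. Hoxd9 in inducible cells, at 0.17, lies farthest above 0, and Hoxa10 in parental cells, at -0.19, farthest below.

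Genes of proteins that work with Hox factors were compared in the same way. Of 10 TALE genes, 6 were lower in inducible cells under DMSO, 1 was higher and 3 were not called, with a median log2 difference of -0.14 against -0.01 over all probe sets, of which 14.5% were lower and 15.2% higher. Under RSL 5 were lower and 1 higher, against 16.8% and 17.5% of all. Meis2, a Hox cofactor of limb and trunk, was lower by 0.51 under DMSO (standard error 0.04, adjusted p = 1.91e-08 in limma) and by 0.36 under RSL. Meis3 was at -0.22 and -0.23, Pbx3, a partner of Hox proteins on DNA, at -0.17 and -0.23, and Pknox1 at -0.12 and -0.17. Meis1 was lower under DMSO, at -0.17. Tgif1, a TALE repressor, was lower by 0.43 under DMSO and 0.64 under RSL, and also fell by 0.18 with RSL in the inducible cells (adjusted p = 0.0291 in limma), while Tgif2 was higher by 0.25 and 0.13.

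Of 25 polycomb genes, 10 were higher and 4 lower in inducible cells under DMSO and 10 were higher and 2 lower under RSL, with medians of 0.03 and 0.05 against -0.01 and -0.02 over all probe sets. Of all probe sets, 15.2% were higher and 14.5% lower under DMSO, and 17.5% and 16.8% under RSL. Phc1, a subunit of the polycomb repressive complex that compacts chromatin, was at 0.27 and 0.29, Scmh1, another subunit, at 0.26 and 0.16, Rnf2, the ligase of histone H2A, at 0.18 in both, Cbx8, a reader of the polycomb mark, at 0.20 and 0.30, Rbbp4 at 0.19 and 0.25 and Pcgf2 at 0.20 and 0.25. Bmi1 was lower under DMSO, at -0.29 (standard error 0.06, adjusted p = 0.000616 in limma), and Phf19 was at -0.27 and -0.32. With RSL in inducible cells, Pcgf5 rose by 0.18 (adjusted p = 0.0254) and Phc2 fell by 0.14 (adjusted p = 0.0296 in limma). Of 23 genes of trithorax and MLL complexes, 5 were higher and 5 lower under DMSO, and 3 and 6 under RSL, with medians of -0.01 and -0.03. Dpy30, a core subunit of these complexes, was lower by 0.43 and 0.31, and Kmt2b, a histone methyltransferase, by 0.24 and 0.28. Kdm6b, which removes the polycomb mark, was at 0.26 and 0.20, and Kdm5b at 0.20 and 0.21. None of these 23 was called for an effect of RSL in either line, against 2.54% of all probe sets in inducible and 0.0303% in parental cells.

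Among 22 genes of retinoid signaling and other Hox inducers, 3 were higher and 4 lower under DMSO, and 3 and 5 under RSL, with medians of 0.00 and -0.02. Of all probe sets, 29.7% were called under DMSO and 34.2% under RSL. Aldh1a1, which makes retinoic acid, read 9.50 ± 0.06 (SD, n = 3) in inducible and 6.36 ± 0.11 (SD, n = 3) in parental cells under DMSO, a log2 difference of 3.14 (standard error 0.05, adjusted p = 2.89e-17 in limma), and 3.23 under RSL. The parental level lay within the low range under both treatments, so these differences are measured against background. Crabp1, a carrier of retinoic acid, was lower by 0.43 and 0.49, and also fell with RSL in inducible cells, by 0.18 (adjusted p = 0.0375 in limma). Rarg, a retinoic acid receptor, was at -0.16 and -0.27, and Rarb, whose level was within the low range, at 0.10 and 0.16. Egr2, a hindbrain inducer of Hox genes and also an immediate-early gene, fell by 0.34 with RSL in the inducible cells (adjusted p = 0.00969 in limma), but its means of 6.13 to 6.47 were within the low range in all 4 groups and its SD under DMSO was 0.19.

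Of 69 other transcription factors that mark position in fibroblasts and their precursors, 6 were higher and 8 lower in inducible cells under DMSO, and 9 and 11 under RSL, with medians of -0.03 and -0.02. The share called under DMSO, 14 of 69, was below the 29.7% of all probe sets. Under RSL 34.2% of all probe sets were called. The members of the Irx genes that were called went different ways. Irx1 was lower, at -0.66 and -0.79, while its relatives Irx3 and Irx5 were higher, at 0.64 and 0.49 and at 0.39 and 0.44. Prrx2, a gene of limb and skin mesenchyme, was lower by 0.74 (standard error 0.04, adjusted p = 3.71e-10 in limma) and 0.68, and Prrx1 was higher by 0.24 and 0.17. Twist2, a gene of dermal fibroblasts, was higher by 0.61 and 0.49, Lhx6, a gene of the jaw, lower by 0.42 and 0.56, and Dlx1, also of the jaw, lower by 0.44 and 0.39. With RSL in inducible cells, Tbx3 fell by 0.24 (adjusted p = 0.00289 in limma) and Irx2 rose by 0.20 (adjusted p = 0.0106). In parental cells none of the members of these 5 lists was called for RSL, against 0.0303% of all probe sets.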

How the data were processed

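Log2 expression was analysed for 12 Affymetrix Mm430_2.0 arrays. Per the methods and the labels, the authors grouped probes with a Custom CDF (version 10, Entrez-based genes), corrected background by RMA and normalized by quantiles. The deposited log2 values were used as they were, the log base being inferred from their range. The sources used here do not give how probes of a gene were summarized.

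From the 16539 probe sets, 64 controls were left out and 16475 tested, 15780 of them named by the platform annotation. Those without a symbol were tested but not named. Groups came from the sample titles. All 12 arrays entered 1 limma 3.58.1 fit (R 4.3.3) of 4 group means, with 8 residual degrees of freedom and no block. The 5 comparisons were inducible over parental cells under DMSO and under RSL, RSL over DMSO in each line, and the difference of these effects. P-values were adjusted by Benjamini-Hochberg over all probe sets. Named were all called Hox genes, the 5 smallest p per comparison with fewer than 5 calls, and up to 8 called genes per list. Members and lists were chosen with earlier results of these data known. Hoxd8's upstream sequence was chosen after its values were seen. The fit was tested on simulated data. As alternatives, each array was left out, the 40% of probe sets with the lowest mean log2 were dropped, quantile normalization was repeated, medians were centred, and the fit was made with array weights, an intensity trend, a replicate block or only the 6 arrays concerned. The one-way analysis of the methods was also run. The number of arrays limits the precision. Replicates are called biological in the labels, which do not say if cultures were separate, so the spread behind each p-value may be technical.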

Additional observations from a re-analysis of the deposited data

Results flagged for a closer look

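Of the genes named above, Egr2 and Ier2 had log2 differences between RSL and DMSO that were unequal in the 2 cell lines, by the test of the difference itself. For Egr2 the effect in inducible cells minus that in parental cells was -0.53 on the log2 scale (standard error 0.10, adjusted p = 0.0124 in limma), from levels within the low range in all 4 groups, and for Ier2 it was -0.64 (standard error 0.07, adjusted p = 0.000262). No Hox gene was called for such a difference. Groups of 3 arrays are too small to look for a single array that stands apart.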

How the results depend on the processing

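The counts of called Hox genes kept to within 1.5 times in most alternatives. Under DMSO, where 11 members were called, the methods' one-way analysis gave 10 at the nominal p and 6 with Benjamini-Hochberg adjusted p, array weights and median centring gave 12 each, and leaving out each array gave 6 to 11. The lowest counts were 6 without inducible DMSO replicate 1 and 7 without inducible DMSO replicate 2 or parental DMSO replicate 1. Under RSL, where 9 were called, the alternatives gave 6 to 12 and leaving out each array 7 to 11. For RSL in inducible cells, 1 member, Hoxd9, was called with the filter on low values, 1 with an intensity trend, 1 with repeated quantile normalization and 0 to 1 when an array was left out, without inducible RSL replicate 2. In parental cells the methods' nominal threshold gave 2 and every other alternative 0, and for the difference of the effects all alternatives run gave 0. The cause of these changes was not tested. With the replicate block, 10 members were called under DMSO and 9 under RSL. The numbers do not pair the arrays, since 4 of 18 same-number pairs had deviations that correlated above 0.1 (range -0.30 to 0.22) and 2 of 12 arrays correlated best with their own number. Single-gene values under these settings were taken for the called Hox genes. Where a comparison had no call, the 5 members with the smallest p were taken. Of these 708 values, 50 lost a call, 5 gained one and 0 changed direction. Calls that other Hox genes gained between the cell lines are not among these values. Hoxa7, Hoxb3 and Hoxb6 kept their calls in all alternatives. After Benjamini-Hochberg adjustment of the one-way analysis, Hoxa5, Hoxb9, Hoxb13, Hoxc4, Hoxc6 and Hoxd8 lost their calls under DMSO. Hoxa10, Hoxa11, Hoxb2 and Hoxb13 lost theirs there under RSL. Counts for the other gene lists stayed within 1.5 times in 825 of 913 cases. Differences within the low range are limited by signal over background.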
